A study of Mus musculus with 12 samples.

Results

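Exosomes of mouse bone-marrow-derived dendritic cells whose label gives a Sidt1/Sidt2 double knock-out (DKO) were compared with the cells that released them, across all genes of the series count table. The comparison took 6 of the 12 libraries, namely the cells and the exosomes of mice 151, 152 and 153, chosen by genotype and compartment as the labels give them, and 12316 of the 27179 listed genes had enough counts to be tested. The other 6 libraries, from 3 mice labelled wild type (WT), are used only for Sidt1 and Sidt2 and at the end. Per the labels, femur marrow of C57Bl/6 mice was kept in culture for 7 days, the DMEM medium being enriched with fetal calf serum and a GM-CSF-containing supernatant of X-63 cells, the 3 DKO mice were male, and no treatment was given. Exosomes were prepared from the culture supernatant by ultrafiltration and differential ultracentrifugation. Cell RNA was taken with Tri-Reagent and vesicle RNA with Trizol LS and a Qiagen kit, so compartment and extraction cannot be told apart, and vesicles may also have come from the serum or the X-63 supernatant. Below, "cells" and "exosomes" are the libraries labelled DKO.

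Exosomes are small vesicles that form when the membrane of an endosome buds inward and the endosome then fuses with the cell surface. The ESCRT complexes, tetraspanins and Rab GTPases serve this route, and the vesicles carry messenger RNA, whole or in pieces, along with proteins. Marrow grown with GM-CSF yields dendritic cells, which take up antigen and show it to T cells, together with macrophage-like cells. SIDT1 and SIDT2 are mammalian relatives of SID-1, which carries double-stranded RNA across membranes in nematodes.

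Sidt2 was near 0 in all 6 libraries, with 1.34, 0.638 and 1.15 counts scaled by library size (CPM) in cells and 1.00, 0.868 and 2.42 CPM in exosomes. Sidt1 went against the label, with 52.9, 52.3 and 60.1 CPM in cells and 34.6, 29.4 and 41.6 CPM in exosomes, a log2 fold change of -0.65 ± 0.15 (SE, edgeR adjusted p = 0.00494, and 0.0740 when all 12 libraries were fitted). In the 6 libraries labelled WT, Sidt1 lay at 0 to 0.412 CPM and Sidt2 at 169 to 323 CPM, so Sidt1 went against both labels and Sidt2 with both. Total counts were 9008189 to 31651403 in the 3 cell libraries and 7215083 to 16348101 in the 3 exosome libraries. Exosomes and cells lay apart on the first principal component of the 1000 most variable genes, which held 77.3% of their variance. The second held 12.7%, and there the exosomes of mouse 152 lay at 29.3 and those of mice 151 and 153 at -20.2 and -17.7. Exosome libraries differed more among themselves than cell libraries did: the median SD of a gene's log2 CPM was 0.205 in exosomes and 0.132 in cells, over 8852 genes.

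The compartments differed over much of the transcriptome. By edgeR's quasi-likelihood test, 2922 genes were higher in exosomes (23.7% of those tested) and 2922 were lower (23.7%) at a Benjamini-Hochberg adjusted p under 0.05, and these are the genes referred to as called, risen or fallen. With counts scaled to the library total the split was 2214 higher against 3433 lower. That scaling moved the median gene from -0.01 to -0.14 on the log2 scale, so all changes are relative to the typical gene. Of the 5844 called genes, 47.5% of those tested, 5826 changed in one direction in 3 of 3 mice. The calls were made on the libraries of those same mice, so that number is no separate support for them. Among the called genes 1029 were at least 2-fold higher (8.35% of those tested) and 1405 at least 2-fold lower (11.4%). Counts of list members given below are to be set beside the 23.7% called each way over all genes tested. The plot of fold change by abundance shows all tested genes.

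**Figure D1:**
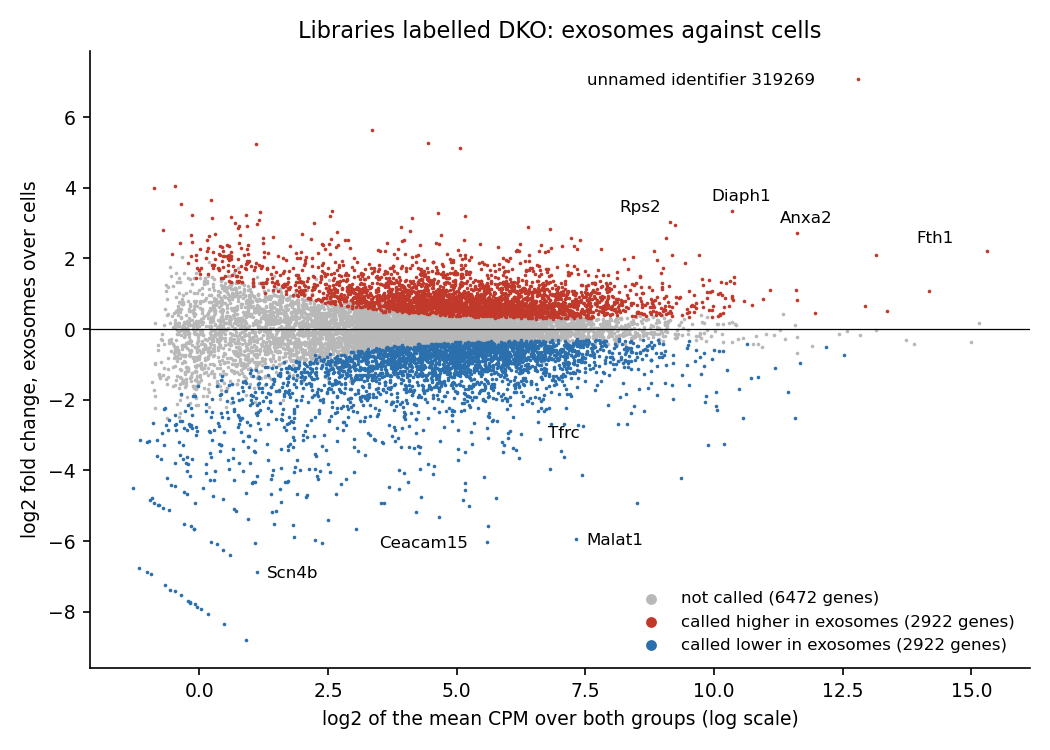
Log2 fold change of each of the 12316 tested genes, exosomes over cells labelled DKO, by the log2 of its mean CPM. Red points are the 2922 genes called higher and blue points the 2922 called lower. The unnamed identifier 319269 stands at 7.08, and the ferritin heavy chain gene Fth1 is the most abundant of the labelled genes.

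Ferritin transcripts made up a large part of what was sequenced from exosomes. Ferritin is the iron storage shell, built of a heavy chain (Fth1, GRCm38 chromosome 19, 9980600 to 9985111) and a light chain (Ftl1, chromosome 7, 45457944 to 45459886). Together they took 1.94%, 1.88% and 1.76% of all counts in cells of mice 151, 152 and 153 and 7.78%, 8.40% and 7.02% in their exosomes. The exosome shares lay above every cell share (two-sided exact permutation test of 3 against 3, p = 0.1, the smallest this design can give). Fth1 stood at 15225, 14196 and 13685 CPM in cells and 68461, 75110 and 56214 CPM in exosomes, a 4.63-fold rise (log2 fold change 2.21 ± 0.18, edgeR adjusted p = 5.97e-06). Ftl1 rose 4.27-fold, from 3458 ± 488 to 14776 ± 2473 CPM (SD, n = 3, edgeR adjusted p = 9.57e-06). Both genes have processed pseudogene copies in the mouse genome, so their counts carry an uncertainty that the deposited tables do not resolve.

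Ferritin and several other iron genes are known to be controlled by iron-responsive elements (IREs), hairpins in the untranslated regions that bind the iron regulatory proteins. The known loop begins CAGTG and follows a bulged C by 5 bases. The pattern of a C, 5 bases of any kind, CAGTG and any base was searched on the transcript strand of the GRCm38 annotation for a set of iron genes chosen after their values had been seen. The 22-base windows below, 5′ or 3′ of the coding region, are only a part of the matches found in that set. The matches left out are named after them. Capitals mark the letters CAGTGN, and pairing of the bases on either side was not tested.
Fth1, 5′ UTR, chr19:9982733-9982754, plus strand: tcctgcttcaaCAGTGCttgaa
Ftl1, 5′ UTR, chr7:45459785-45459806, minus strand: tcttgcttcaaCAGTGTttgaa
Slc40a1, 5′ UTR, chr1:45925471-45925492, minus strand: aacttcagctaCAGTGTtagct
Tfrc, 3′ UTR, chr16:32631220-32631241, plus strand: attatcggaagCAGTGCcttcc
Tfrc, 3′ UTR, chr16:32631599-32631620, plus strand: attatcgggagCAGTGTcttcc
Tfrc, 3′ UTR, chr16:32631646-32631667, plus strand: tttgcctaccaCAGTGTctata
Tfrc, 3′ UTR, chr16:32631664-32631685, plus strand: tatatcggagaCAGTGAtctcc
Tfrc, 3′ UTR, chr16:32631711-32631732, plus strand: attatcgggaaCAGTGTttccc

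The letters alone are common. They occurred in the 5′ UTR of 8.15% of tested genes and in the 3′ UTR of 36.8%. Among genes called higher the shares were 7.29% and 38.4%, and among genes called lower 8.74% and 36.0%. A match describes the letters and does not show a working element. Fth1 also had 1 match in its 3′ UTR, and the iron importer gene Slc11a2 had 2 in its own 3′ UTR. These are not among the windows shown, so the windows do not stand for all matches in the iron genes described next.

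The transferrin receptor gene Tfrc (chromosome 16, 32608896 to 32632794), whose product brings iron into the cell, went the opposite way to ferritin. Tfrc stood at 171, 157 and 165 CPM in cells and 29.4, 27.8 and 22.2 CPM in exosomes, 6.17-fold lower (log2 fold change -2.62 ± 0.14, edgeR adjusted p = 5.18e-07). Exosome and cell libraries did not overlap, as for 58.3% of genes tested. The iron exporter gene Slc40a1 stood at 43.4, 34.7 and 40.4 CPM in cells and 83.5, 65.3 and 50.7 CPM in exosomes, 1.69-fold higher (edgeR adjusted p = 0.00518, and 0.127 when all 12 libraries were fitted). Slc11a2 did not pass the test (log2 fold change 0.24 ± 0.17, edgeR adjusted p = 0.262). Slc48a1, which carries haem out of lysosomes, was 3.32-fold higher and reached 769, 910 and 712 CPM in exosomes, and Hmox1, which breaks haem down, was 1.84-fold higher.

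Ferritin belongs to a list of 31 tested antioxidant and ferritin genes, of which 18 rose and 2 fell (median log2 fold change 0.57, against -0.01 over all genes tested). The mitochondrial thioredoxin gene Txn2 rose 2.03-fold, from 121, 128 and 111 to 218, 281 and 234 CPM. The cystine transporter gene Slc7a11 fell 2.99-fold, from 224, 200 and 184 to 76.4, 70.5 and 56.0 CPM (edgeR adjusted p = 1.27e-05). The number that fell was 5 without the exosomes of mouse 152.

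**Figure D2:**
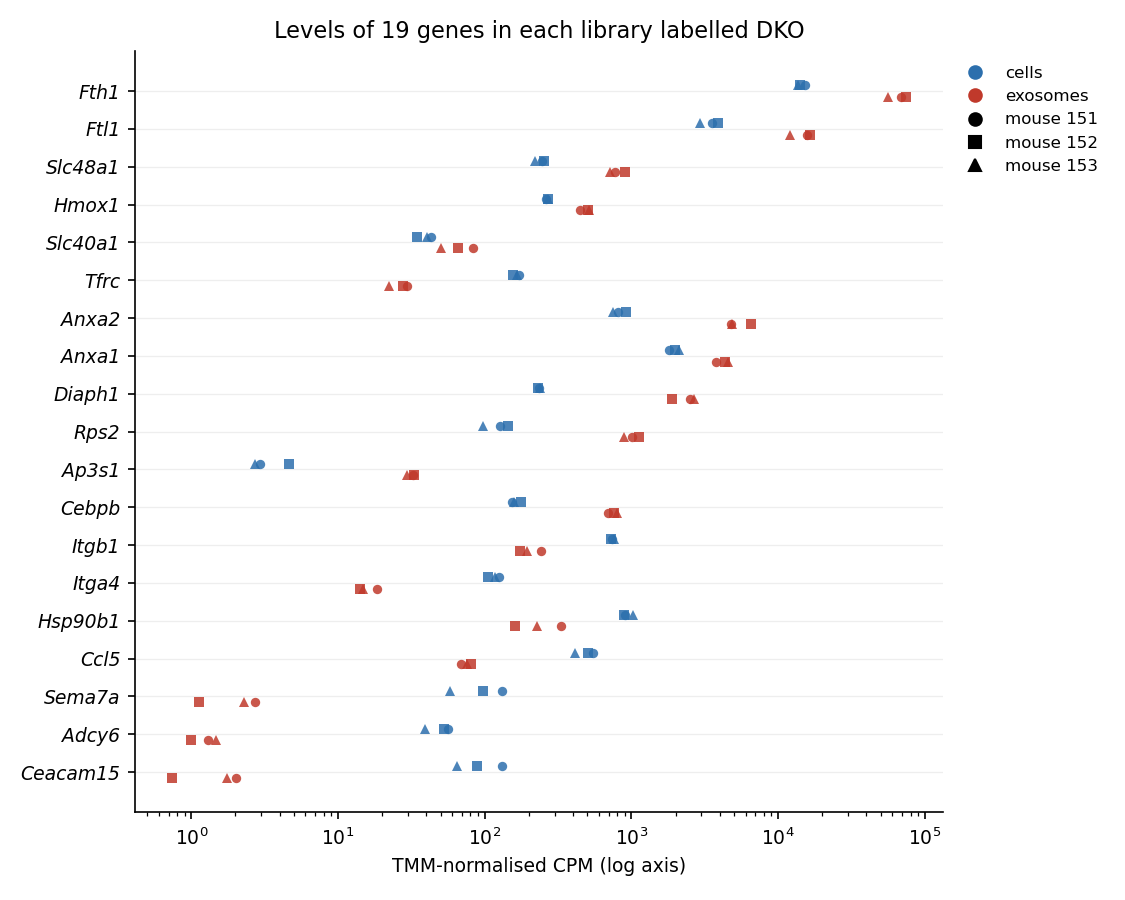
TMM-normalised CPM, on a log axis, of 19 genes in each library labelled DKO, with cells in blue, exosomes in red and a marker shape for each mouse. For each gene drawn, the 3 exosome libraries lie on one side of the 3 cell libraries, higher for Fth1, Ftl1 and Anxa2 and lower for Tfrc, Itga4 and Ceacam15.

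The highest fold change of the whole comparison belonged to an identifier that the name tables do not pair with a symbol. Identifier 319269, listed with a length of 3365 bases, stood at 92.9, 124 and 95.3 CPM in cells and at 16082, 12796 and 13490 CPM in exosomes (log2 fold change 7.08 ± 0.22, 135-fold, edgeR adjusted p = 9.69e-09). By itself it took 1.17% to 1.49% of the counts of an exosome library and 0.00963% to 0.0129% of those of a cell library. Of 242 unnamed identifiers tested, 60 were called higher and 43 lower, to be set beside 23.7% each over all genes tested. All unnamed identifiers together held 2.31% to 2.45% of exosome counts and 1.06% to 1.30% of cell counts.

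Among named genes with a mean log2 CPM above 3, the 15 with the highest fold changes rose 5.63-fold to 10.0-fold. Groups that do not overlap were a condition of this choice. Diaph1, a formin that assembles actin filaments, rose 10.0-fold, from 235, 232 and 240 CPM to 2527, 1882 and 2686 CPM (log2 fold change 3.33 ± 0.16, edgeR adjusted p = 3.10e-07). The 3 cell values were close together and far below every exosome value. Groups without overlap were found for 7184 genes (58.3% of those tested). Anxa2, for a calcium-dependent membrane-binding protein (chromosome 9, 69453683 to 69491792), rose from 810, 919 and 753 to 4799, 6559 and 4835 CPM. Rps2, for a protein of the small ribosomal subunit, rose from 127, 145 and 97.0 to 1002, 1128 and 888 CPM. Ap3s1, for the small subunit of the AP-3 adaptor that sorts cargo to lysosomes, rose from 2.94, 4.65 and 2.72 to 32.5, 33.1 and 29.6 CPM. Those 4 genes were of similar height in the 3 exosome libraries.

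Others of the 15 were more uneven. Rap1gap2, which switches off the GTPase Rap1, stood at 4.45, 4.20 and 5.45 CPM in cells and at 68.7, 40.3 and 25.7 CPM in exosomes. Fam168b went from 135, 127 and 150 to 1594, 942 and 662 CPM, and Gnpat, which starts the synthesis of ether lipids in peroxisomes, 5.93-fold, to 389, 196 and 182 CPM. In these 3 genes the exosomes of mouse 151 were the highest. The rest of the 15 were Metrn, Ppp1r14b, Otud3, Scand1, Exog, Wsb2, Tdg and Phospho1. Tdg, a DNA glycosylase that acts in base excision repair, rose 5.76-fold.

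Chosen by the same conditions, groups without overlap among them, the 15 named genes that fell furthest were 23.1-fold to 65.2-fold lower. Ceacam15 (chromosome 7, 16671331 to 16675705), of the carcinoembryonic antigen family, fell from 131, 88.5 and 64.7 CPM to 2.01, 0.735 and 1.75 CPM (log2 fold change -6.03 ± 0.36, edgeR adjusted p = 9.01e-07). Sema7a, a semaphorin held to the membrane by a lipid anchor, fell from 132, 97.2 and 58.4 to 2.72, 1.14 and 2.29 CPM. Adcy6, an adenylate cyclase, fell from 56.2, 52.8 and 39.3 to 1.29, 1.00 and 1.48 CPM. In all 3 genes the lowest cell library stood far above the highest exosome library. Mmp25, a membrane-anchored metalloproteinase, fell 32.5-fold, Il18r1, a chain of the interleukin-18 receptor, 30.4-fold, Adgrg6, an adhesion G-protein-coupled receptor, 28.6-fold, and Scin, an actin-severing protein, 27.2-fold. The nuclear long non-coding RNA Malat1 fell 60.9-fold, from 297, 279 and 362 to 4.58, 5.01 and 6.05 CPM. The rest of the 15 were Slc27a3, Il12b, H2-Eb2, Ccr7, Adam23, Dpp4 and Slc22a23.

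Some transcripts were nearly lost from the vesicle libraries at this depth. There were 38 genes with at least 10 counts in each cell library and at most 3 counts over the 3 exosome libraries, and 0 genes the other way round. Scn4b, a sodium channel subunit, had 53, 127 and 41 counts in cells and 0, 0 and 1 in exosomes. The cytokine gene Il6 had 59, 105 and 39 counts against 1, 1 and 0, a ratio of counts per total of 76.2 (95% counting interval 20.8 to 634). The transcription factor gene Pou4f1 had 51, 106 and 14 counts against 2, 0 and 1, and the immunoglobulin segment Ighv6-3 had 45, 86 and 45 against 3, 0 and 0. The unnamed identifier 100861900 had 47, 92 and 40 counts against 0, 0 and 0, at least 44.8-fold higher in cells when its total over the 3 exosome libraries is set to 3 counts. A count of 0 in an exosome library allows up to 3 counts, or 0.184 to 0.416 CPM over the 3 exosome libraries.

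Transcripts of chemokine and cytokine receptors fell in exosomes far more often than they rose. Of 37 tested, 23 fell (62.2%, against 23.7% over all genes tested) and 0 rose, with a median log2 fold change of -0.96. Csf1r, the receptor of macrophage colony-stimulating factor, fell from 520, 578 and 621 to 194, 165 and 170 CPM (log2 fold change -1.70 ± 0.12, edgeR adjusted p = 3.17e-06). Il13ra1, a chain of the interleukin-13 receptor, fell from 116, 122 and 117 to 41.5, 36.5 and 39.6 CPM. For both genes the replicates of a group were close and the groups did not overlap, as for 58.3% of genes tested. Here and below, called list members were mostly named by smallest p, which favours such genes. Close replicates and separate groups are therefore no further support. Csf2rb2 fell 1.95-fold. Csf2rb, the shared chain of the GM-CSF receptor and the most abundant of the list, stood at 2367, 2114 and 1854 against 2047, 1238 and 1472 CPM and did not pass the test (edgeR adjusted p = 0.0866, and 0.0164 with the mouse as a block).

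Integrins and other adhesion genes moved the same way: 19 of 24 tested members fell and 0 rose, with a median of -1.18. Itga4 fell 7.32-fold, from 125, 105 and 117 to 18.4, 14.0 and 14.8 CPM (edgeR adjusted p = 5.18e-07). Its partner chain Itgb1 fell 3.67-fold, from 740, 727 and 764 to 241, 173 and 193 CPM. Itga1 fell 3.76-fold and Itgam, the alpha chain of the complement receptor Mac-1, 2.23-fold. Itgb2, the beta chain of Mac-1, did not pass the test at 1589, 1684 and 1691 against 1755, 1199 and 1174 CPM. Among Itgb2 values the exosomes of mouse 151 lay above all cell libraries, and without them the gene was called lower.

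Fc receptors and C-type lectins were mixed, with 11 of 23 tested members lower (7 without mouse 153) and 3 higher. Clec10a, a galactose-binding lectin, fell 5.64-fold, from 77.4, 90.8 and 82.8 to 14.0, 14.8 and 15.9 CPM, and its close relative Mgl2 fell 2.75-fold. Reads of those 2 related genes may be exchanged in counting. Fcer1g, the signalling chain that Fc receptors share, rose from 598, 598 and 610 to 910, 1213 and 912 CPM (1.68-fold, edgeR adjusted p = 0.00118). Clec9a, a receptor for dead cells on a dendritic cell subset, rose from 10.6, 10.9 and 7.23 to 21.1, 21.7 and 23.3 CPM. The beta-glucan receptor gene Clec7a stood at 1175, 1361 and 1329 against 1399, 1425 and 1452 CPM and did not pass the test.

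Markers of dendritic cells fell with these groups. Of 23 tested, 20 fell and 1 rose, and their summed level was 11575 to 16139 CPM in cells and 3785 to 4269 CPM in exosomes. The summed level of the macrophage markers, which Lyz2 dominates, was 39583 to 51904 CPM in cells and 43582 to 54938 CPM in exosomes, with 2 of 19 tested members higher and 10 lower. In a bulk sample, fewer vesicles from one kind of cell and less of its RNA per vesicle cannot be told apart. The part of cell makeup in the fall of receptors, lectins and adhesion genes was not tested.

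**Figure D3:**
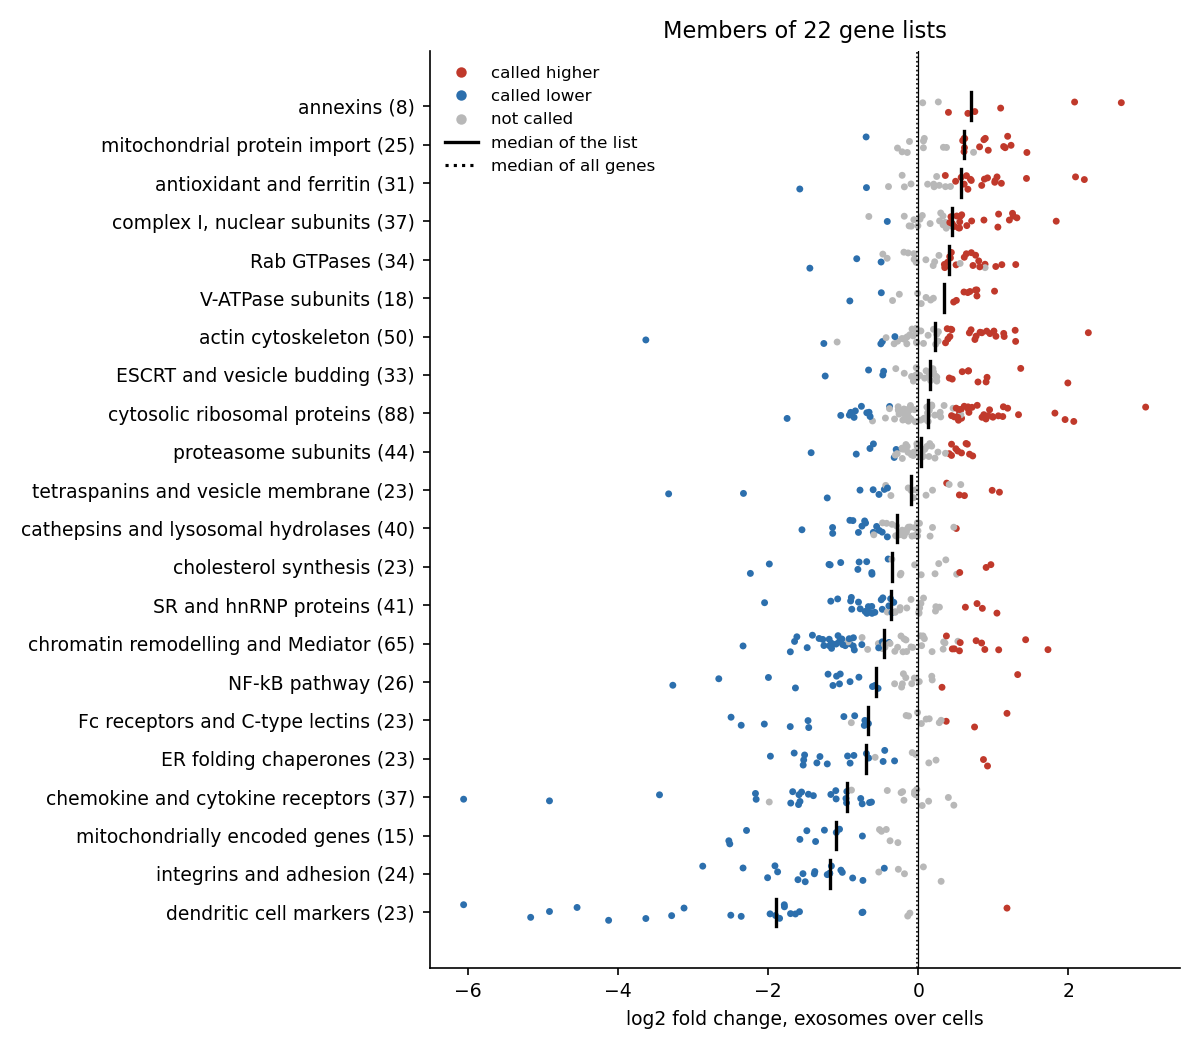
Log2 fold change, exosomes over cells, of the tested members of 22 gene lists, with the number tested in brackets, the list median as a bar and the median of all genes as a dotted line. Annexins have a median of 0.71 and integrins one of -1.18; the median of ribosomal proteins goes from 0.13 to -0.00 and that of the proteasome from 0.03 to -0.10 with total-count scaling.

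Proteins of membranes are folded in the endoplasmic reticulum, and the transcripts of its folding machinery were lower too. Of 23 tested genes in a list of chaperones and stress regulators, 16 fell and 2 rose (median -0.69). The stress regulators in it were Xbp1, Atf4, Atf6, Ddit3, Ern1 and Eif2ak3. Hsp90b1, which folds Toll-like receptors and integrins, fell 3.92-fold, from 909, 887 and 1026 to 332, 160 and 228 CPM (edgeR adjusted p = 4.90e-05). Canx, the lectin chaperone calnexin, fell 2.88-fold, from 656, 615 and 690 to 280, 209 and 191 CPM. Uggt1, which tags misfolded glycoproteins for another round of folding, fell 2.90-fold, and Pdia3, a disulphide isomerase, 2.48-fold. The exosomes of mouse 151 were the highest of their group for these 4 genes, yet below every cell library. The exceptions were Sdf2l1, from 63.9, 79.6 and 65.3 to 114, 156 and 126 CPM, and the stress factor gene Ddit3, from 18.9, 15.9 and 16.1 to 28.5, 33.1 and 31.1 CPM.

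The machinery that brings proteins into the endoplasmic reticulum and glycosylates them had 11 of 32 tested members lower (6 without mouse 153) and 4 higher (1 to 2 without the cells of mouse 151 or 153). Sec63 and Sec62, parts of the translocon, fell 2.74-fold and 2.12-fold, and Magt1, an oxidoreductase subunit of the oligosaccharyltransferase, fell 2.05-fold. Ostc, another subunit of that enzyme, rose from 68.5, 79.0 and 76.1 to 103, 132 and 113 CPM.

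Among vesicle trafficking genes, the Rab GTPases leaned the other way. Of 34 tested Rab GTPases, the switches that direct vesicles between compartments, 18 rose and 3 fell (median 0.40, and 0.27 with total-count scaling). Rab1b, which acts between the endoplasmic reticulum and the Golgi apparatus, rose 2.46-fold, from 113, 123 and 116 to 271, 302 and 293 CPM (edgeR adjusted p = 8.33e-06). Rab31 rose 2.16-fold and Rab3d, a GTPase of secretory granules, from 59.0, 65.2 and 59.6 to 111, 114 and 115 CPM. Rab27a, which docks multivesicular endosomes at the cell surface for exosome release, fell instead, from 47.5, 42.7 and 35.0 to 18.1, 14.6 and 13.1 CPM (2.72-fold, edgeR adjusted p = 9.54e-05). Rab9, which serves return from late endosomes to the Golgi, fell 1.77-fold.

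Among 33 tested ESCRT and budding genes 10 rose and 4 fell (30.3% and 12.1%, against 23.7% each over all genes tested). With total-count scaling 8 rose and 4 fell, and the median of 0.16 became 0.03. Vps37b, a subunit of ESCRT-I, rose from 13.1, 14.9 and 13.3 to 68.7, 56.2 and 39.4 CPM (3.98-fold, edgeR adjusted p = 2.47e-05). The ESCRT-III subunits Chmp6, Chmp1a and Chmp4b rose, Chmp6 2.58-fold, Chmp1a 1.87-fold and Chmp4b from 265, 270 and 233 to 371, 423 and 358 CPM. Sdc4, the syndecan whose tail feeds the syntenin route of vesicle budding, fell 2.36-fold, to 4.80, 8.55 and 5.65 CPM. Syntenin itself, Sdcbp, stood at 1172, 1116 and 1266 against 1180, 1519 and 1271 CPM and did not pass the test. The exosome marker protein gene Tsg101 fell 1.58-fold (edgeR adjusted p = 0.00395, not called without mouse 153).

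Tetraspanins and other vesicle membrane genes were divided, with 5 of 23 tested members higher (3 without the cells of mouse 153) and 8 lower (5 without the cells of mouse 151 or 152 or the exosomes of mouse 153). Tspan13 fell 10.0-fold, from 46.0, 35.1 and 26.1 to 3.15, 4.28 and 3.09 CPM. Icam1, an adhesion ligand carried on dendritic cell exosomes, fell 2.32-fold, while the lipid-raft gene Flot2 rose from 79.9, 82.6 and 78.5 to 162, 150 and 165 CPM and the caveola gene Cav1 rose 2.12-fold. The exosome marker Cd9 did not pass the test, at 1463, 1517 and 1397 against 1304, 1193 and 901 CPM (edgeR adjusted p = 0.0641, and 0.0225 with the mouse as a block).

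Annexins bind membranes in the presence of calcium, and 6 of 8 tested members rose, none falling. Anxa6 rose 4.24-fold, from 240, 216 and 210 to 870, 857 and 1095 CPM, and Anxa1 2.14-fold, from 1811, 1993 and 2113 to 3800, 4335 and 4524 CPM. Anxa4 and Anxa11 rose 1.58-fold and 1.69-fold. Anxa3 and Anxa7 did not pass the test, with log2 fold changes of 0.27 ± 0.11 and 0.06 ± 0.12. The call of Anxa5 (log2 fold change 0.40 ± 0.13, edgeR adjusted p = 0.0272) was lost without the exosomes of mouse 152, without the cells of mouse 152 or 153, and with total-count scaling. Another family of calcium-binding proteins, S100, had 1 of 8 tested members higher and 1 lower: S100a1 (1.70-fold, not called without the cells of mouse 153) and S100a4 (1.44-fold, not called without the cells of mouse 152 or the exosomes of mouse 151 or 153).

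Of 18 tested subunits of the vacuolar proton pump (V-ATPase), which acidifies endosomes and lysosomes, 9 rose and 2 fell (1 without the cells of mouse 152 or 153 or the exosomes of mouse 153), with a median of 0.34. Atp6v0d1 rose 2.02-fold, from 255, 274 and 245 to 494, 557 and 514 CPM, and Atp6v0d2 and Atp6v1e1 each rose 1.72-fold. The accessory protein gene Atp6ap2 fell 1.88-fold. Of 40 tested cathepsins and lysosomal hydrolases, 1 rose and 14 fell (median -0.29), with 23 falling without the exosomes of mouse 151 and 6 without mouse 153. Ctsc, a dipeptidyl peptidase, fell 2.21-fold, from 439, 484 and 588 to 245, 220 and 219 CPM, and the aminopeptidase Ctsh fell 1.83-fold. The saposin precursor gene Psap and the protease gene Ctsb stood at 14463, 15370 and 15389 against 14938, 11496 and 10254 CPM and at 6220, 6250 and 6173 against 7254, 5546 and 5218 CPM, and did not pass the test, though Psap was called lower without the exosomes of mouse 151. Ctsd was the only member to rise (1.42-fold, edgeR adjusted p = 0.0237), a call lost without any of the cell libraries or the exosomes of mouse 151.

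The lysosomal platform of the growth kinase mTORC1 had 8 of 19 tested members higher and 5 lower (3 without the cells of mouse 151 or 153 or the exosomes of mouse 151). Akt1s1, an inhibitory partner of the kinase, rose from 16.2, 17.2 and 15.2 to 40.2, 56.5 and 47.0 CPM, and the anchor subunit gene Lamtor4 rose 1.87-fold. Rptor, the scaffold that recruits substrates, fell from 60.7, 49.9 and 37.3 to 22.1, 16.6 and 24.5 CPM, and the arginine sensor Slc38a9 fell 1.95-fold. The first pair have deposited lengths of 1882 and 877 bases, and the second pair 6932 and 8913 bases.

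Of 36 tested Toll-like receptor and RNA sensor genes, 7 rose (4 without mouse 153) and 11 fell (7, 7 and 6 without the cells of mouse 151, 152 or 153). The shares were 19.4% higher and 30.6% lower, against 23.7% each over all genes tested. Sting1, the membrane adaptor of cytosolic DNA sensing, fell from 70.2, 77.2 and 66.2 to 19.1, 24.4 and 21.3 CPM (3.30-fold, edgeR adjusted p = 8.07e-06). The endosomal receptor genes Tlr9 and Tlr13 fell 5.08-fold and 2.04-fold. Their chaperone gene Unc93b1 stood at 347, 398 and 407 against 342, 357 and 331 CPM and did not pass the test. Traf3, a ubiquitin ligase of interferon signalling, rose from 22.2, 19.5 and 19.4 to 118, 49.6 and 47.9 CPM, and the kinase gene Irak1 rose from 63.5, 57.2 and 58.6 to 102, 85.0 and 99.2 CPM.

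Genes of the NF-kB pathway fell more often than they rose, 14 against 2 of 26 tested (1 rise without any 1 of the cell libraries or the exosomes of mouse 151 or 153), with a median of -0.56. Traf1, an adaptor of tumour necrosis factor receptors, fell 9.65-fold, from 138, 117 and 73.7 to 9.60, 13.5 and 10.8 CPM. Map3k14, the kinase of the non-canonical branch, fell 6.31-fold, and the subunit Rel 3.99-fold, from 29.7, 23.3 and 24.5 to 6.30, 6.61 and 6.46 CPM. Cflar, an inhibitor of caspase-8, rose to 210, 130 and 143 CPM (2.50-fold, edgeR adjusted p = 0.000127).

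Of 45 tested interferon-stimulated genes 19 fell and 5 rose (3 without mouse 152). The guanylate-binding protein genes Gbp2 and Gbp5 fell 4.69-fold and 3.94-fold, and the antiviral dynamin gene Mx1 fell from 72.0, 79.2 and 95.7 to 20.7, 19.1 and 24.5 CPM. Genes of the oligoadenylate synthetases, which make the signal that activates RNase L, were among the rises: Oas1a from 23.3, 32.8 and 36.0 to 51.6, 72.1 and 68.9 CPM, and Oas1g 2.47-fold. These paralogs lie close in sequence, so the reads of one may be counted for the other.

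Secreted chemokines did not move as one. Of 34 tested chemokine and cytokine genes 13 rose (8 without the cells of mouse 152) and 7 fell, and the median of 0.11 became -0.03 with total-count scaling. Ccl6 was among the most abundant transcripts of the exosomes and rose from 11518, 11978 and 12460 to 23813, 30008 and 21759 CPM (2.10-fold, edgeR adjusted p = 0.000421). The chemokine genes Ccl3 and Ccl4 rose 1.96-fold and 2.63-fold, with Ccl3 at 106, 107 and 106 CPM in cells and 193, 218 and 212 CPM in exosomes. Ccl5, which encodes a chemokine that draws T cells, fell 6.49-fold, from 551, 504 and 410 to 68.4, 81.2 and 76.0 CPM (edgeR adjusted p = 5.18e-07). Cxcl14 rose 3.28-fold, and Il12b, a subunit of interleukin-12, fell 35.9-fold.

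Transcription factors of the myeloid lineage had fewer rises than falls. Of 40 tested, 8 rose and 15 fell (20% and 37.5%, against 23.7% each over all genes tested). Cebpb, a factor of macrophage and granulocyte genes (chromosome 2, 167688915 to 167690432), rose from 154, 177 and 159 to 692, 765 and 796 CPM (4.60-fold, edgeR adjusted p = 6.57e-07). Bhlhe41 rose from 38.5, 35.1 and 31.7 to 142, 135 and 124 CPM, while its paralog Bhlhe40 fell from 656, 590 and 494 to 341, 353 and 395 CPM. Both genes were tight within each group. The nuclear receptor gene Nr4a3 fell 9.22-fold, and Nfil3 and Klf6 fell 2.42-fold and 2.10-fold. The inhibitor of differentiation gene Id2 did not pass the test, at 748, 683 and 596 against 565, 636 and 523 CPM.

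Nuclear-encoded and mitochondrially encoded genes of respiration parted. Complex I had 20 of 37 tested nuclear subunits higher and 1 lower (median 0.45), with 26 higher when the mouse was a block, 13 under total-count scaling, and 12 without the cells of either mouse 151 or mouse 153. Ndufa6 rose 3.57-fold, from 25.1, 30.1 and 19.0 to 78.2, 117 and 71.9 CPM, and Ndufs7 and Ndufa13 rose 2.32-fold and 2.09-fold. Complexes II to IV had 12 of 25 higher and 3 lower (5 without the exosomes of mouse 152). Cox8a rose 2.28-fold and the assembly factor Cox7a2l 1.82-fold, while Uqcrc2, a core subunit of complex III, fell from 201, 212 and 205 to 141, 145 and 146 CPM. ATP synthase had 8 of 16 higher (5 to 8 over the alternatives) and 1 lower (0 to 4). Among those higher were Atp5a1, the alpha subunit, which rose from 651, 688 and 615 to 1287, 1281 and 1033 CPM, and Atp5g1, which rose 2.18-fold.

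Of 25 tested genes for the import of proteins into mitochondria, 14 rose, 1 fell and 10 did not pass the test (median 0.61). Tomm40, the pore of the outer membrane, rose from 22.9, 31.9 and 23.4 to 63.3, 67.1 and 85.0 CPM (2.73-fold, edgeR adjusted p = 7.67e-05). Grpel1, a partner of the import motor, rose 2.36-fold and Tomm6 2.28-fold.

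The genes of the mitochondrial genome took 8.07%, 7.48% and 7.48% of counts in cells and 5.58%, 5.08% and 2.48% in exosomes (exact permutation test of 3 against 3, p = 0.1, the smallest possible). Of 15 tested, 10 fell and 0 rose, and 2 fell when all 12 libraries were fitted. The exosomes of mouse 153 stood apart: their median deviation from the group mean over these genes was -1.18 on the log2 scale, against 0.72 and 0.44 for mice 151 and 152. The small ribosomal RNA mt-Rnr1 fell from 1132, 1019 and 1124 to 426, 472 and 197 CPM (2.99-fold, edgeR adjusted p = 0.000540, not called when all 12 libraries were fitted). COX1, among the most abundant transcripts of both compartments, stood at 39790, 36448 and 34970 against 36091, 35460 and 14100 CPM and did not pass the test.

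Of 88 tested genes for cytosolic ribosomal proteins, 32 rose and 11 fell, and 21 rose and 5 fell when all 12 libraries were fitted. The number that fell was 19 without the exosomes of mouse 152, and 18 with total-count scaling. The median of these genes, 0.13, became -0.00 with total-count scaling. Their share of counts was 1.67%, 1.79% and 1.56% in cells, below the share in each exosome library. Rpl8 rose from 634, 730 and 562 to 1577, 1777 and 1508 CPM and Rpl36 3.88-fold, while Rpl5, which binds the 5S ribosomal RNA, fell from 41.1, 35.3 and 46.6 to 19.4, 26.6 and 18.6 CPM. Ribosomal protein genes have many pseudogenes, so a part of each count is uncertain.

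Translation factors had 15 of 52 tested higher and 13 lower (28.8% and 25%, against 23.7% each over all genes tested). Eif4ebp2, a brake of cap-dependent translation, reached 221, 161 and 135 CPM in exosomes (4.49-fold, edgeR adjusted p = 6.95e-06), and the related Eif4ebp1 rose 2.46-fold. The scaffold Eif4g3 fell 3.55-fold and the helicase Eif4a2 2.35-fold, from 334, 300 and 344 to 136, 147 and 131 CPM. The elongation factor Eef2 rose from 1010, 982 and 873 to 1728, 1651 and 1687 CPM. Eef1a1, the most abundant of the list, did not pass the test, at 3617, 3404 and 3031 against 3054, 2981 and 2599 CPM.

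The proteasome had 10 of 44 tested subunits higher and 6 lower (22.7% and 13.6%, against 23.7% each over all genes tested). It had 4 higher and 4 lower without the cells of mouse 151, and 4 higher and 9 lower with total-count scaling. Psmd3 rose from 45.2, 50.6 and 45.6 to 69.0, 81.8 and 83.3 CPM, Psma5 fell from 22.6, 20.6 and 24.5 to 5.30, 11.6 and 8.07 CPM, and the ATPase subunit Psmc1 fell 1.77-fold. Ubiquitin-conjugating enzymes had 12 of 31 tested higher (7 without the cells of mouse 153, 6 with total-count scaling) and 2 lower (5 without the exosomes of mouse 152). Cdc34, Ube2m and Ube2v1, which act in the conjugation of ubiquitin or NEDD8, rose 2.56-fold, 2.36-fold and 2.35-fold.

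Of 23 tested genes of cholesterol synthesis and its control, 11 were lower and 3 higher (median -0.35). Cyp51 and Sc5d, membrane enzymes of the late steps, fell 3.96-fold and 2.28-fold. The soluble enzymes Mvd and Mvk of the early pathway rose, Mvd from 60.4, 75.1 and 68.3 to 129, 143 and 128 CPM and Mvk 1.87-fold. The groups did not overlap for these 4 genes. They were named as called members of each direction, so standing on opposite sides followed from the choice. Of the list, 9 members were not called. Whether early and late steps part over the whole list was not tested.

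In glycolysis 6 of 19 tested enzymes rose (3 without the cells of mouse 151) and 2 fell. With total-count scaling 3 rose and 4 fell. The hexokinase gene Hk3 rose from 136, 154 and 144 to 269, 276 and 334 CPM, Pgam1 rose 1.76-fold, and the muscle enolase gene Eno3 fell 3.55-fold, from 18.3, 16.1 and 14.2 to 3.94, 5.48 and 4.17 CPM. In the citric acid cycle 6 of 20 rose and 3 fell, with Pdha1 and Mdh2 higher by 1.69-fold and 1.54-fold. Among 188 tested solute carriers 31 rose and 60 fell. Slc4a8, a sodium-driven bicarbonate exchanger, fell 22.1-fold, from 31.3, 25.4 and 17.5 to 1.07, 1.34 and 0.807 CPM, and Slc33a1, the acetyl-CoA carrier of the endoplasmic reticulum, 4.11-fold. The mitochondrial carrier gene Slc25a39 rose from 122, 132 and 102 to 326, 394 and 301 CPM.

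In the cytoskeleton 21 of 50 tested actin genes rose and 5 fell (3 without any 1 of the cell libraries or the exosomes of mouse 151). Arpc1a, a subunit of the branching complex Arp2/3, rose 4.81-fold, from 77.6, 80.2 and 73.7 to 455, 382 and 276 CPM, and the membrane linker gene Rdx and the crosslinker gene Flna rose 2.46-fold and 2.45-fold. Fscn1, which bundles actin in the processes of mature dendritic cells, fell from 331, 262 and 159 to 15.3, 24.3 and 21.3 CPM (12.4-fold), and the myosin gene Myh9 fell 2.39-fold. Actb did not pass the test, at 8923, 7749 and 6500 against 6431, 7482 and 6706 CPM. Among tubulins and motors 12 of 36 rose and 9 fell (33.3% and 25%, against 23.7% each over all genes tested). The mitotic kinesin genes Kif11 and Kif23 fell 4.17-fold and 4.67-fold, while Klc4, a kinesin light chain, rose from 51.0, 52.8 and 50.4 to 109, 121 and 132 CPM and Tuba1b 2.46-fold.

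Chromatin remodellers and Mediator had 28 of 65 tested members lower and 11 higher (6 without mouse 151). Kmt2c, a histone H3 lysine methyltransferase, fell from 42.4, 30.9 and 38.0 to 10.9, 11.4 and 13.3 CPM, and Baz2a and Smarca5, partners in one remodelling complex, fell 2.39-fold and 2.42-fold. Med22 and Med25, subunits of Mediator, rose 3.31-fold and 2.10-fold. RNA polymerase II and its general factors had 5 of 33 tested higher and 7 lower, which became 7 higher and 6 lower without the cells of mouse 152 and 3 each without mouse 151 or mouse 153. Polr2a, the catalytic subunit of RNA polymerase II, fell from 97.8, 79.9 and 81.3 to 30.4, 24.0 and 40.4 CPM and Taf1, the largest subunit of TFIID, 2.22-fold, whereas Taf10, a small subunit of the same factor, rose from 31.2, 37.1 and 28.5 to 172, 190 and 140 CPM (5.16-fold). Of 316 tested zinc finger genes 93 fell and 29 rose (44 without the exosomes of mouse 152).

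Lists of RNA-binding proteins differed in their counts. Of 41 tested SR and hnRNP genes 22 fell (14 without mouse 151 or mouse 153) and 4 rose. Hnrnpa2b1, a protein known to sort microRNAs into exosomes, fell from 605, 595 and 656 to 333, 358 and 376 CPM (1.74-fold, edgeR adjusted p = 0.000230), and Hnrnpa0 rose 2.07-fold, from 124, 106 and 106 to 211, 240 and 243 CPM. Of 30 genes for RNA-binding proteins linked to vesicle RNA, 18 fell (9 without mouse 151) and 4 rose. Zfp36 and Zfp36l1, which bind AU-rich elements and speed the decay of cytokine transcripts, fell 3.30-fold and 6.41-fold. Ybx1, another protein linked to vesicle RNA sorting, rose from 647, 629 and 630 to 1086, 833 and 969 CPM. Of 24 Sm and LSM core proteins, which form the rings of small nuclear ribonucleoproteins, 6 rose and 4 fell (2 to 7 with 1 library or mouse left out). Here 25% were higher and 16.7% lower, against 23.7% each over all genes tested.

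The microRNA and decay machinery gave small counts on both sides. Of 18 small RNA genes 3 rose and 4 fell (2 without the cells of mouse 151). Their shares were 16.7% and 22.2%, against 23.7% each over all genes tested. The Argonaute genes parted: Ago2 rose from 24.8, 20.0 and 17.3 to 56.7, 32.9 and 30.7 CPM (1.94-fold, edgeR adjusted p = 0.00672), and Ago1 fell from 66.4, 49.9 and 57.5 to 35.7, 25.9 and 37.9 CPM. Of 42 RNA decay genes 7 rose (4 without mouse 151 or mouse 153) and 10 fell (5 without mouse 153). Those are 16.7% and 23.8%, against 23.7% each over all genes tested. The nuclear exonuclease gene Xrn2 and the kinase gene Smg1 of nonsense-mediated decay fell 2.15-fold and 2.28-fold, and the decapping enzyme gene Dcp2 rose from 41.6, 33.0 and 44.5 to 106, 78.3 and 73.7 CPM. The AU-rich element TTATTTATT, searched on the transcript strand, was present in the 3′ UTR of 7.07% of tested genes, 6.18% of those called higher and 7.43% of those called lower.

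Markers of other marrow lineages differed widely in level, and most of these lists summed to less in exosomes, though not platelet or T and NK cell markers. Of 17 tested neutrophil markers 7 fell and 0 rose, and their summed level was 3201 to 3593 CPM in cells and 1900 to 3100 CPM in exosomes. Mast cell and basophil markers summed to 29.4 to 39.3 CPM against 12.7 to 17.8 CPM, with Mcpt4 and Tpsab1 at 0 in the 6 libraries, and Kit, the stem cell factor receptor, fell from 14.2, 9.39 and 9.22 to 0.430, 0 and 0.404 CPM. B and plasma cell markers summed to 420 to 429 CPM in cells and 334 to 384 CPM in exosomes. Erythroid markers summed to 201 to 226 CPM in cells and 41.2 to 57.4 CPM in exosomes, mostly Tfrc, with Slc4a1 at 0. T and NK cell markers summed to at most 7.15 CPM and stromal and endothelial markers to at most 16.7 CPM in any library, while platelet markers summed to 430 to 559 CPM in cells and 527 to 627 CPM in exosomes. Their part in the differences above was not tested.

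Called genes shared features that the comparison did not use. Among the quintile of tested genes with the shortest deposited length, 60 to 1470 bases, 35.8% were higher in exosomes and 11.6% lower. Among the longest quintile, 4591 to 83437 bases, 14.1% were higher and 37.9% lower. The 3 quintiles between them lay in order. GC content of the transcripts, known for 11507 genes, divided the calls further: in the quintile with the lowest GC content, 31.9% to 44.4%, 7.60% were higher and 41.7% lower, and in the quintile with the highest, 55.9% to 72.9%, 43.1% were higher and 12.9% lower.

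**Figure D4:**
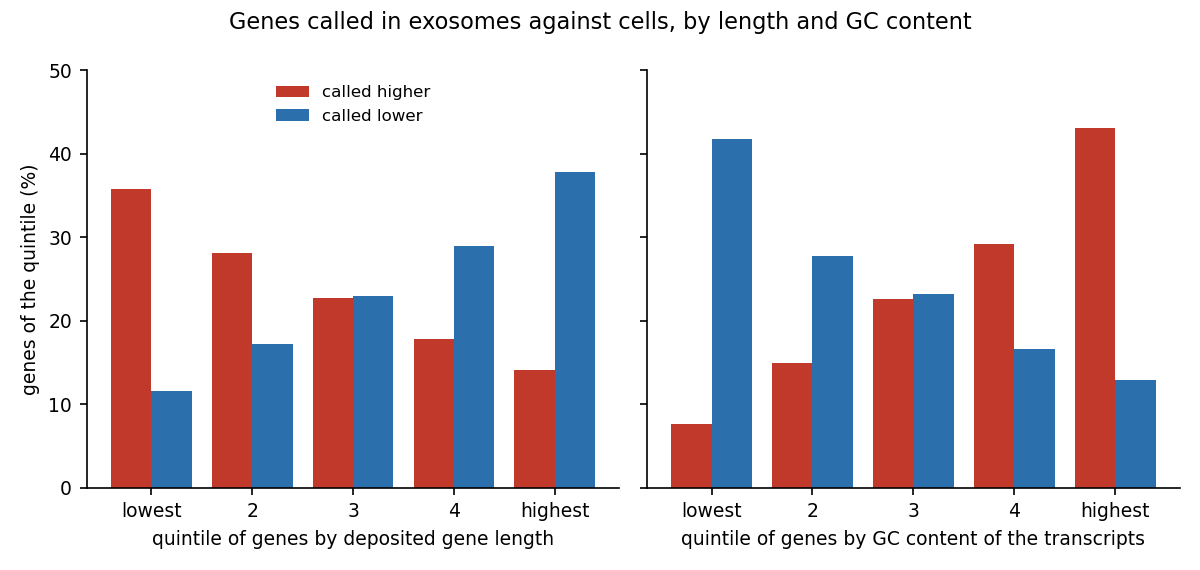
Percent of tested genes called higher (red) or lower (blue) in exosomes, by quintiles of the deposited gene length and of the GC content of the transcripts. The share called higher goes from 35.8% in the shortest quintile to 14.1% in the longest, and from 7.60% in the quintile with the lowest GC content to 43.1% in the quintile with the highest.

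Both features counted when combined. With genes divided into tertiles by each, short GC-rich genes (1467 genes) were 50.6% higher and 7.91% lower, and long GC-poor genes (1676 genes) 7.70% higher and 45.3% lower. Short GC-poor genes were 12.2% higher and 24.4% lower, and long GC-rich genes 24.2% and 26.5%. The length of the coding part gave a wider division than that of the untranslated parts. From the shortest to the longest quintile the share higher went from 37.0% to 11.1% by coding length and from 26.1% to 22.6% by 3′ UTR length. Across genes, which are not independent replicates, the Spearman correlation with the log2 fold change was -0.268 for length and 0.355 for GC content.

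Length also divided the exosome libraries from one another. In the shortest quintile the exosomes of mouse 152 lay 0.27 above the mean of their group (median log2 CPM) and in the longest 0.26 below, whereas those of mouse 151 went from -0.12 to 0.19 and those of mouse 153 from -0.14 to 0.08. The cells of mouse 152 went from 0.11 to -0.10. The part of gene length in the differences between the gene groups above was not tested.

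**Figure D5:**
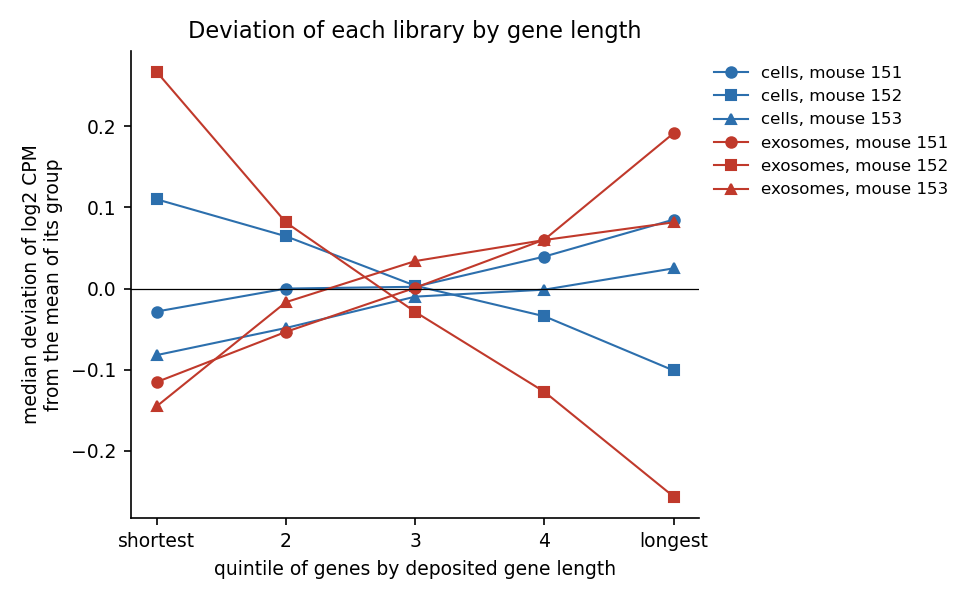
Median deviation of log2 CPM of each library from the mean of its group, by quintiles of the deposited gene length, with cells in blue, exosomes in red and a marker shape for each mouse. The exosomes of mouse 152 go from 0.27 in the shortest quintile to -0.26 in the longest, and both other exosome libraries go the other way.

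The mice labelled WT gave the same comparison with other animals, and the genotypes are named here as labelled, although Sidt1 goes against those labels. With 12261 genes tested in both genotypes, the log2 fold changes correlated across genes (Pearson's r = 0.851, as a description). Of 2914 genes higher in exosomes labelled DKO and tested in WT, 1937 (66.5%) were called higher and 0 lower in WT exosomes, and they made up 80.7% of the WT calls in that direction. Of 2911 lower genes 2050 (70.4%) were called lower and 0 higher, 81.7% of the WT calls. In WT 38.3% of 12829 genes tested were called. The difference between the genotypes itself, the compartment by genotype interaction over all 12 libraries, was called for 0 of 12970 genes (0.0%) by edgeR and 0 by DESeq2, with 776 (5.98%) and 947 at an unadjusted p under 0.05.

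Some lists had other medians in WT, side by side with these. Ribosomal proteins had a WT median of 1.10 against 0.13 here, mitochondrially encoded genes 0.15 against -1.09, and nuclear complex I subunits 0.98 against 0.45. Since no gene was called for the interaction, none of these list members is shown to differ between the genotypes. Tfrc had log2 fold changes of -2.11 in WT and -2.62 in libraries labelled DKO, Fth1 2.49 and 2.21, and Hsp90b1 -2.35 and -1.97.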

How the data were processed

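RNA of 6 libraries labelled DKO, cells and exosomes of 3 mice, was compared, and the 6 libraries labelled WT served the side-by-side values and the interaction. RNA was sequenced as 80 bp paired ends from 200 ng of total RNA per library, per the labels' protocols. The authors deposited raw counts, 1 whole number per gene and library, and a length per gene. The counts were made with featureCounts on mm10, per the submitters' processing notes. Not given in the sources used here: aligner, versions, annotation and strandedness. Overlapping genes may therefore share reads. Symbols were matched for 25275 of 27179 identifiers, from the annotation of GRCm38, the assembly of mm10.

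The members, gene lists and tests were chosen with earlier results of these data known. Genes were tested on the deposited counts with edgeR 4.0.16 in R 4.3.3 (quasi-likelihood F test, robust fit, TMM scaling, package filter on low counts by group, Benjamini-Hochberg adjustment over all genes tested) on the 6 libraries, without a block, at a threshold of 0.05. The script was tested on simulated data. Levels are TMM-normalised CPM, and folds are fitted by edgeR. Shares of counts were compared by a two-sided exact permutation test. Gene length is as deposited; GC content and UTRs came from GENCODE transcripts of GRCm38 (GC content known for 93.4% of tested genes), an analysis added after seeing the data. Per-library totals put 3 counts at 0.0948 to 0.416 CPM. Limits and intervals cover counting error only.

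Cells and exosomes with the same number come from 1 mouse, which pairs them. Same-mouse deviations from the mean of the group had correlations of 0.190 (mouse 151), 0.162 (152) and 0.138 (153). Alternatives were the mouse as a block, DESeq2 size factors, total-count scaling, 2 other filters, DESeq2 1.42.0, limma 3.58.1 voom with quality weights, a fit of all 12 libraries, and leaving out each library or mouse.

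Named genes were Sidt1 with Sidt2, and, for rises and falls separately, the 15 of largest change among called genes (mean log2 CPM above 3, groups not overlapping, no predicted or clone name), and the 10 most abundant genes of each group. From each of the 54 lists came the 3 called members with the smallest p in the direction with more calls, 2 in the other and the 2 most abundant, or every tested member of lists with 13 or fewer. The last 5 were those with counts in 1 compartment. Iron genes outside that rule (Hmox1, Slc40a1, Slc11a2), Ctsb, identifier 319269 and Ifi202b were chosen after their values were seen. A few items that this rule names are not reported here.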

Additional observations from a re-analysis of the deposited data

How the results depend on the processing

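With the mouse as a block, pairing cells with exosomes of a mouse, 3078 genes were higher and 3227 lower, and beyond the values given above the block moved no count of all genes by over 1.5 times. Over the other settings 2214 to 3061 genes were higher and 2508 to 3433 lower (2922 each as reported), and leaving out 1 library or mouse gave 1969 to 2959 and 1960 to 3021. The interaction was called for 0 genes under each alternative run for it, namely DESeq2 size factors, the filter of 1 CPM in 3 libraries, DESeq2, the mouse as a block and leaving out each of the 12 libraries. Without the WT exosomes of mouse 46, 2438 genes had an unadjusted p under 0.05 and the smallest adjusted p was 0.0639 (edgeR). For 272 single genes over 4624 gene and alternative pairs, 4464 kept their direction and side of the threshold, 126 lost a call, 34 gained one and 0 reversed. Of 918 list medians 113 moved by more than the spread between mice, and of 1836 list counts 253 moved by over 1.5 times, mostly counts of few genes. With total-count scaling the shortest quintile had 28.3% higher and 14.98% lower, the longest 10.8% and 43.2%, the quintile with the lowest GC content 5.00% and 47.6%, and that with the highest 36.1% and 14.7%. The cause was not tested. A description by protein sequence features was not run. Depth limits the genes near 0 in exosomes, where 1 to 3 counts decide a ratio.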

Other observations

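Ifi202b, an interferon-inducible gene of the HIN-200 family, divided the mice and not the compartments. It had 0, 39.3 and 54.4 CPM in cells and 0, 22.9 and 35.3 CPM in exosomes of mice 151, 152 and 153, so that the cells and the exosomes of a mouse had the transcript together or lacked it together. Among the WT mice it was found in cells and exosomes of mouse 42, at 41.9 and 22.1 CPM, and was at 0.1 CPM or less in those of mice 33 and 46. It was chosen after its values were seen.

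Some genes were uneven within the exosome group. Pik3c3, the class III phosphatidylinositol 3-kinase of endosomes and autophagy, stood at 31.1, 32.8 and 35.9 CPM in cells and at 76.9, 40.1 and 263 CPM in exosomes, and its call (edgeR adjusted p = 0.0458) was lost without the exosomes of mouse 151 or any 1 of the cell libraries. Genes of long coiled-coil or filament proteins, Ktn1 and Filip1l, were lowest in the exosomes of mouse 152, with 10.1, 1.67 and 11.6 CPM and 13.8, 1.00 and 11.2 CPM, against 64.5 to 83.5 and 48.8 to 54.0 CPM in cells. These genes were chosen after their values were seen.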
